A study of Homo sapiens with 4 samples.

Results

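The 10 genes described here carry iron into, through and out of a hepatocyte: HAMP, HFE and TFR2 (the iron hormone and its sensors), TF, TFRC and SLC11A2 (carriage and uptake), FTH1 and FTL (storage), and SLC40A1 and CP (export and oxidation). They were chosen by gene name, not by a rule on their values, though earlier results of these data were known. All 10 were found among the 58302 genes listed for each library. mRNA was sequenced from HepG2, an established human hepatocellular carcinoma (HCC) line with the wild-type genotype, grown in MEM with fetal bovine serum. The 4 libraries were cells given DMSO, the solvent control, for 24 h, cells given 1 mM melatonin, the pineal indoleamine, for 24 h, cells given DMSO for 48 h, and cells given 1 mM melatonin for 48 h. The comparison of interest was melatonin with DMSO at each time. Each condition was 1 library, so no difference below has a replicate check and no test between conditions was made.

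Hepatocytes take up iron bound to transferrin, keep the excess inside the ferritin shell built of heavy and light chains, and release iron through ferroportin, the only known iron exporter of vertebrate cells. They also secrete hepcidin, the peptide that binds ferroportin and has it degraded, and they set hepcidin by sensing iron at the cell surface through HFE, TFR2 and bone morphogenetic protein (BMP) receptors. Inside the cell, the iron regulatory proteins bind a hairpin of the mRNA, the iron-responsive element (IRE), when iron is scarce. Binding in a 5′ UTR blocks translation, as for ferritin and ferroportin, while binding in the 3′ UTR protects the mRNA from decay, as for the transferrin receptor.

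Levels were the deposited FPKM, fragments per kilobase of gene scaled to the size of the library. The reads behind each FPKM were recovered from the values, and the intervals below are 95% exact Poisson limits (levels) or exact binomial limits (ratios) of those reads, which cover counting error only. The libraries held between 21616676 and 23086025 reads on genes. Mitochondrial genes took 20.0% of them in the DMSO 24 h library, 16.6% in the melatonin 24 h library, 9.77% in the DMSO 48 h library and 11.9% in the melatonin 48 h library. All 6 hepatocyte markers (ALB, AFP, APOA1, TTR, SERPINA1 and APOB) reached an FPKM of 1 in every library, with a summed FPKM between 6921 and 8708. Endothelial, fibroblast and erythroid markers (4 genes each) were below that level in every library, with HBB, COL3A1 and DCN at 0. Of 5 leukocyte or macrophage markers, LYZ stood between 729 and 1069, and PTPRC, CD68, CD163 and MARCO had an FPKM of 0.104 or less.

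The IRE hairpins are shown because they are the sequence by which iron is known to act on the mRNAs of this set; binding was not measured, and a match is a match of letters. They were searched as a C, any 5 bases and the 6-base loop CAGTGN on the sense strand of GENCODE 44 coding transcripts, with the 5 bases before the loop pairing with the 5 after it and G-T pairs allowed. FTH1 and FTL held 1 match each in the 5′ UTR within exon 1, at chr11:61967575-61967602 on the minus strand and chr19:48965335-48965362 on the plus strand of hg38. SLC40A1 also held 1 match in the 5′ UTR, in 1 of 5 coding transcripts, within exon 1 at chr2:189580662-189580689 on the minus strand. TFRC held 4 in the 3′ UTR of 13 of 16 coding transcripts, within exon 19, all on the minus strand of chromosome 3, from the farthest downstream at chr3:196050464-196050491, through chr3:196050511-196050538 and chr3:196050576-196050603, to chr3:196050980-196051007. Each hairpin is written 5′ to 3′ with the loop in capitals.
FTH1: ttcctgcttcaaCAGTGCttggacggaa
FTL: ctcttgcttcaaCAGTGTttggacggaa
SLC40A1: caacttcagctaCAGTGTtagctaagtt
TFRC, first listed position: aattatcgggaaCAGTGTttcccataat
TFRC, second listed position: ctgtatcggagaCAGTGAtctccatatg
TFRC, the third listed position: cattatcgggagCAGTGTcttccataat
TFRC, the fourth listed position: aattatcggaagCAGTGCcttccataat
These letters were held by 256 of 19061 MANE transcripts (1.34%). TF held 1 match in the 3′ UTR of 1 of 7 coding transcripts, beyond the end of the TF model in the deposited files. SLC11A2, which has a described 3′ UTR element in some of its transcripts, held no match, nor did HAMP, HFE, TFR2 or CP.

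The set spanned more than 3 orders of magnitude in FPKM, and the same genes led in all libraries. FTL was the highest in each, at rank 18, 14, 17 and 17 of all genes (in the order DMSO then melatonin at 24 h and DMSO then melatonin at 48 h, kept below), followed by TF and FTH1. CP, TFRC and TFR2 came next, between 21.6 and 56.9, then SLC11A2 and SLC40A1 between 6.72 and 14.2, and HAMP and HFE between 1.14 and 4.42. SLC11A2 stood above SLC40A1 with DMSO and below it with melatonin, at both times, although their intervals overlapped in the DMSO 48 h library. The order of genes close in level depends on the gene lengths listed in the deposited files. That length was 2.38 times the MANE transcript for SLC11A2 and 1.30 times for SLC40A1, and 0.425 times for TF and 1.69 times for FTH1. HAMP and HFE could not be ordered within counting error in either DMSO library, and HAMP was above HFE in both melatonin libraries. The intervals of CP and TFRC overlapped in the melatonin 24 h library. The 10 genes together took between 0.730% and 1.02% of the reads on genes.

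**Figure D1:**
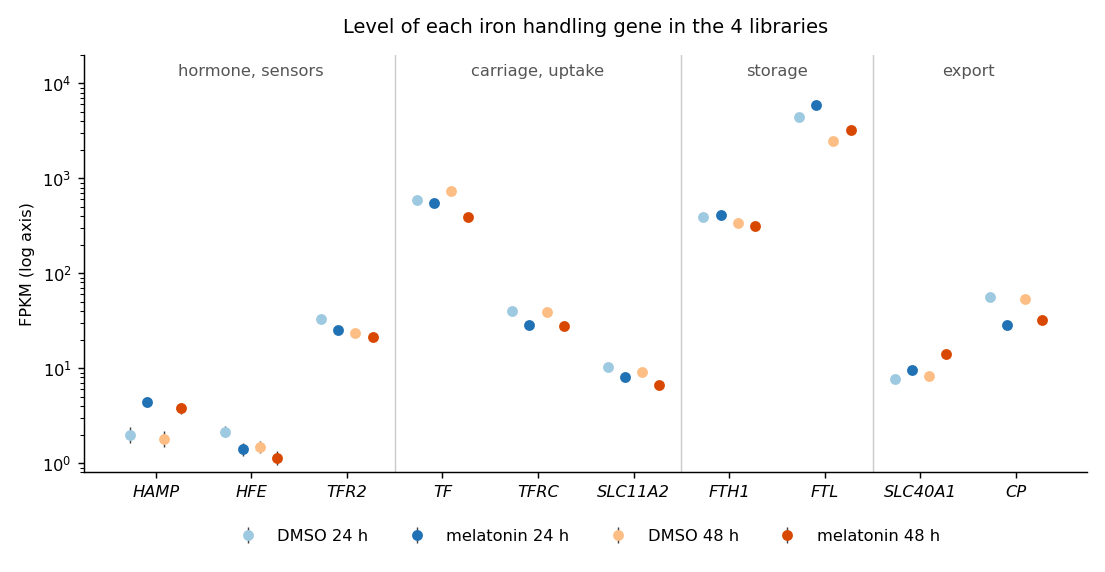
FPKM (log axis) of each of the 10 iron handling genes in the 4 libraries, grouped by role, with points for the libraries and bars for the 95% Poisson interval of the reads, often smaller than the point. FTL lies at the top between 2470 and 5938 and HAMP and HFE at the bottom between 1.14 and 4.42, with both melatonin points of HAMP above both DMSO points.

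The FPKM listed for the hepcidin gene was higher with melatonin at both times. HAMP (ENSG00000105697, chr19:35280716-35285143, plus strand, hg38) encodes the peptide hormone that closes ferroportin. Its FPKM was 1.97 (1.62 to 2.38), 4.42 (3.91 to 4.98), 1.80 (1.49 to 2.16) and 3.77 (3.32 to 4.27), from 109, 270, 119 and 252 reads. Both melatonin libraries were high, both DMSO libraries were low, and the 2 pairs of intervals did not overlap. The ratio of melatonin to DMSO was 2.24 (1.79 to 2.83) at 24 h and 2.09 (1.68 to 2.62) at 48 h. Against ALB in the same library, which does not depend on library size, the ratio was 2.08 times that of DMSO at 24 h and 2.12 times at 48 h. The length listed for HAMP is 3010 bp, 7.41 times its 406 bp MANE transcript. Its level relative to other genes depends on that length, which cancels in its ratios between libraries. The listed model begins at 35280716 and the MANE transcript at 35282528. Where in the model the reads lie is not given, so the share from the MANE transcript is not known for any library.

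The iron sensors were lower with melatonin. HFE (ENSG00000010704, chr6:26087281-26098343, plus strand), the major histocompatibility complex-like protein that is shed from the transferrin receptor when transferrin is loaded, had an FPKM of 2.14, 1.41, 1.49 and 1.14 from 223, 162, 185 and 144 reads. DMSO 24 h was the highest library and melatonin 48 h the lowest, and the ratio was 0.657 (0.534 to 0.809) at 24 h and 0.769 (0.614 to 0.961) at 48 h. TFR2 (ENSG00000106327, chr7:100620416-100642779, minus strand), the hepatocyte receptor that senses loaded transferrin, stood at 32.8, 25.5, 23.6 and 21.6. Its ratio was 0.776 (0.736 to 0.818) at 24 h and 0.913 (0.863 to 0.965) at 48 h. The DMSO 48 h level of TFR2 was below the melatonin 24 h level, so the libraries of each treatment overlapped across times.

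Among 30 other genes listed around the control of hepcidin, BMP targets included, 24 reached an FPKM of 1 in each melatonin comparison. Fold changes over lists of genes are log2 of FPKM plus 1, and 2-fold is meant on that scale, which shrinks the differences of low genes. Melatonin values exceeded DMSO values for 53.5% of genes at 24 h and 47.5% at 48 h. Among the hepcidin genes, at 24 h 17 were higher and 7 lower with melatonin (median log2 fold change 0.08, all genes 0.02), and at 48 h 8 were higher and 16 lower (median -0.13, all genes -0.02). The rise past 2-fold was that of IL6R, the interleukin-6 receptor, from 8.36 to 20.8 at 48 h, with 3.98 and 5.78 at 24 h. ID1, a BMP target gene, was 114, 159, 117 and 184. The other BMP targets listed parted: ID3 was 21.9, 23.9, 21.9 and 27.8, higher with melatonin at both times. ID2 was 25.8, 22.2, 29.1 and 23.8, lower at both. TMPRSS6, the protease that cleaves the BMP co-receptor hemojuvelin and so lowers hepcidin, was 3.18, 1.52, 1.79 and 1.10 from 238, 126, 160 and 100 reads. At both times ID1 was higher and TMPRSS6 lower with melatonin. With 1 added to the FPKM neither passed 2-fold, though the plain FPKM ratio of TMPRSS6 at 24 h was 0.479. The co-receptor HJV itself had 1 read or fewer in each library, and the ligand BMP2 had 5 or fewer, while BMP4 stood at 36.6, 29.2, 62.4 and 45.6. The ligand BMP6 had 8, 9, 5 and 30 reads, higher with melatonin at 48 h but below an FPKM of 1 in every library.

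Transferrin mRNA was far lower with melatonin at 48 h and nearly level at 24 h. TF (ENSG00000091513, chr3:133745956-133779006, plus strand), the plasma carrier secreted by hepatocytes, stood at 585 (581 to 589), 547 (543 to 550), 740 (736 to 744) and 388 (385 to 391). The DMSO 48 h library was the highest of the 4 and the melatonin 48 h library the lowest. The ratio was 0.525 (0.520 to 0.529) at 48 h, or 1.91-fold lower, and 0.935 (0.926 to 0.943) at 24 h, where the direction turned when values were rescaled to TPM (log2 fold change -0.10 as deposited, 0.08 as TPM). The 48 h effect less the 24 h effect was -0.83 (-0.85 to -0.81) in log2 of the FPKM ratio. Against ALB in the same library, TF was 0.188, 0.164, 0.268 and 0.143. Of the 6 hepatocyte markers, AFP and APOA1 were also lower with melatonin at 48 h, 1902 against 782 and 974 against 691, TTR was higher, 50.6 against 256, and ALB, SERPINA1 and APOB lay between -0.02 and 0.15 in log2 of FPKM plus 1, and the part of such shifts in the TF value was not tested. In RNA from a whole culture, fewer cells making a transcript and less of it in each cell cannot be told apart.

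The transferrin receptor was lower with melatonin at both times. TFRC (ENSG00000072274, chr3:196027183-196082189, minus strand), which brings loaded transferrin into the cell, was 39.7 (38.6 to 40.7), 28.2 (27.4 to 29.1), 38.8 (37.9 to 39.8) and 27.8 (27.0 to 28.6). The DMSO libraries were alike, the melatonin libraries were alike, and the pairs did not overlap. The ratio was 0.712 (0.684 to 0.740) at 24 h and 0.716 (0.690 to 0.743) at 48 h, and the effects differed by 0.01 in log2 (-0.07 to 0.09), while as TPM they were further apart, at -0.31 and -0.53. SLC11A2 (ENSG00000110911, chr12:50979401-51028566, minus strand), the DMT1 transporter that moves iron out of the endosome, was 10.4, 8.05, 9.22 and 6.72. Each melatonin library was below both DMSO libraries, with ratios of 0.777 (0.726 to 0.831) and 0.729 (0.681 to 0.780).

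Of 13 other uptake genes, 10 reached an FPKM of 1. With melatonin 8 were higher at 24 h and 7 at 48 h, beside 53.5% and 47.5% of all genes, with medians of 0.14 and 0.08 and none past 2-fold in log2 of FPKM plus 1. SLC39A14, the ZIP14 importer of iron not bound to transferrin, was 143, 118, 224 and 148, lower with melatonin at both times. SLC48A1, a lysosomal heme transporter, was higher at both, 1.74 against 2.82 and 1.24 against 2.93 (a plain ratio of 2.36 at 48 h), and MCOLN1, the lysosomal iron channel, was 2.33, 3.39, 2.55 and 2.95.

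In storage, the 2 ferritin chains parted. FTL (ENSG00000087086, chr19:48965301-48966878, plus strand), the light chain that seeds the iron core, stood at 4407 (4374 to 4439), 5938 (5903 to 5974), 2470 (2448 to 2492) and 3234 (3209 to 3260). Melatonin was above DMSO at each time, by 1.35 (1.33 to 1.36) at 24 h and 1.31 (1.29 to 1.33) at 48 h. The scaling moved these values beyond the counting intervals. In log2 of FPKM plus 1, FTL at 24 h was 0.43 as deposited, 0.60 as TPM and 0.49 with plain sums of reads. At 48 h it was 0.39, 0.33 and 0.42. Both 48 h libraries lay below both 24 h libraries. FTH1 (ENSG00000167996, chr11:61959718-61967660, minus strand), the heavy chain with the ferroxidase site, was 392 (386 to 399), 416 (410 to 422), 337 (332 to 343) and 312 (307 to 317). Its ratio to DMSO was 1.06 (1.04 to 1.08) at 24 h and 0.925 (0.904 to 0.947) at 48 h, the single member with opposite directions at the 2 times. Ferritin has many pseudogenes, but reads listed for 25 FTH1 pseudogenes came to at most 1.20% of those of FTH1 and for 14 FTL pseudogenes to at most 0.0588% of those of FTL. Adding them left the FTL values at 0.43 and 0.39 and the FTH1 values at 0.08 and -0.11 in log2. How reads shared with a pseudogene were assigned is not stated in the sources used here.

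Of 6 other storage genes, 4 reached an FPKM of 1, and they divided 2 higher and 2 lower at 24 h and 1 higher and 3 lower at 48 h (medians 0.08 and -0.15). NCOA4, the autophagy receptor that delivers ferritin to lysosomes, was 123, 138, 111 and 130. The iron chaperone PCBP2 was 13.8, 16.1, 20.6 and 18.7, and GLRX3, a cytosolic iron-sulfur carrier, was 18.2, 14.0, 16.4 and 11.0.

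On the export side, ferroportin was higher and ceruloplasmin lower with melatonin. SLC40A1 (ENSG00000138449, chr2:189560579-189583758, minus strand), which encodes ferroportin, was 7.74 (7.14 to 8.37), 9.54 (8.91 to 10.2), 8.36 (7.79 to 8.96) and 14.2 (13.5 to 15.0), from 615, 838, 794 and 1367 reads. The melatonin 48 h library stood apart above the other three, and the intervals of melatonin 24 h and DMSO 48 h overlapped. The ratio was 1.23 (1.11 to 1.37) at 24 h and 1.70 (1.56 to 1.86) at 48 h, and the effect at 48 h was the larger by 0.46 in log2 (0.27 to 0.66). CP (ENSG00000047457, chr3:149162410-149222055, minus strand), the secreted copper ferroxidase that loads iron onto transferrin, was 56.9 (55.6 to 58.1), 28.4 (27.6 to 29.3), 53.8 (52.7 to 55.0) and 32.0 (31.2 to 32.9). Both melatonin libraries were low and both DMSO libraries high. The ratio was 0.500 (0.481 to 0.519) at 24 h, or 2.00-fold lower (1.93 to 2.08), and 0.595 (0.575 to 0.616) at 48 h. CP overlaps HPS3 on the opposite strand, whose reads were at most 6.68% of those of CP, and the strand setting of the counting is not stated.

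The remaining export genes were FLVCR1, a heme exporter, at 9.07, 6.05, 9.81 and 6.52, lower with melatonin at both times, and ABCG2 at 4.48, 4.68, 3.89 and 5.13. The membrane ferroxidase HEPH had no read in any library.

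Across the set, no member passed 2-fold on the scale used for all genes, log2 of FPKM plus 1 with a threshold of 1 among the genes whose FPKM reached 1 in one of the compared libraries. HAMP came to 0.87 and 0.77 on that scale and CP to -0.98 and -0.73, because the added 1 shrinks low levels such as those of HAMP. The share of all genes past 2-fold was 4.35% of 13582 at 24 h and 5.72% of 13805 at 48 h. With a minimum of 50 reads in either library in place of the FPKM minimum, it was 0.806% of 12159 and 2.77% of 12690. Of the calls over all genes, 32.7% were higher at 24 h, or 45.8% as TPM. At 1.5-fold, HAMP and CP passed at 24 h, 2 of 10 beside 11.6% of all genes, and HAMP, TF, SLC40A1 and CP at 48 h, 4 of 10 beside 18.7%. HAMP and CP passed 1.5-fold in the same direction at both times, as did 4.18% of 12775 genes tested at both. The melatonin comparisons at 24 h and 48 h share no library.

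Direction was kept between the times by 9 of 10 members, all but FTH1, where 66.5% of all genes kept theirs. The members had 109 reads or more in every library, whereas all genes include some with few reads, so the shares are not of like genes. HAMP, FTL and SLC40A1 were higher with melatonin at both times (34.5% of all genes), and HFE, TFR2, TF, TFRC, SLC11A2 and CP were lower at both (32.0%). At 24 h 4 of 10 were higher (53.5% of all genes) and at 48 h 3 of 10 (47.5%). The median of the 10 was -0.21 in log2 at 24 h and -0.17 at 48 h, beside 0.02 and -0.02 for all genes. The counting interval of the ratio excluded 1 for all 10 members at both times, as it did for 50.6% of all genes at 24 h and 62.2% at 48 h, and most members have many reads.

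**Figure D2:**
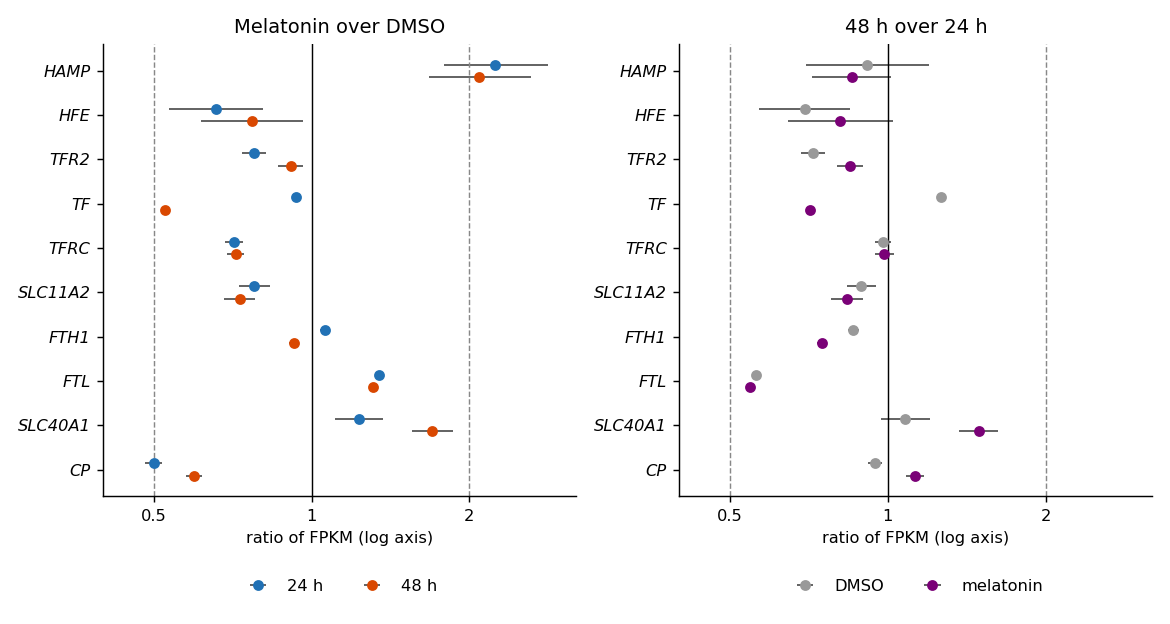
Ratio of FPKM (log axis) of each gene between libraries, melatonin over DMSO at 24 h and 48 h on the left and 48 h over 24 h with DMSO and with melatonin on the right, with 95% counting intervals, dashed lines at 2-fold either way and a solid line at no difference. HAMP lies right of 1 at 2.24 and 2.09 and TFRC left of it at 0.712 and 0.716, while TF is near 1 at 24 h and at 0.525 at 48 h.

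Ratios of members within a library carry no library size and so are untouched by scaling. FTL to FTH1 was 11.2, 14.3, 7.33 and 10.4, and storage to uptake, as FTL to TFRC, was 111 (108 to 114), 210 (204 to 217), 63.6 (62.0 to 65.3) and 116 (113 to 120). With melatonin the FTL to TFRC ratio was 1.89 times that of DMSO at 24 h and 1.83 times at 48 h. FTH1 to TFRC was also higher with melatonin, 14.7 against 9.89 and 11.2 against 8.68. Export to uptake, as SLC40A1 to TFRC, was 0.195, 0.338, 0.215 and 0.511, which is 1.73 times higher at 24 h and 2.38 times at 48 h. SLC40A1 to SLC11A2 was 0.747 against 1.19 at 24 h and 0.907 against 2.12 at 48 h. TF to TFRC had no common direction, 14.8 against 19.4 at 24 h and 19.0 against 14.0 at 48 h. Thus relative to the transferrin receptor, both ferritin chains and ferroportin were higher with melatonin at both times. TFRC was itself lower (0.712 at 24 h, 0.716 at 48 h), which lifts every ratio taken to it. The pattern was not limited to storage and export genes. TFRC to TFR2, a sensor, was 1.21 (DMSO) against 1.11 (melatonin) at 24 h, then 1.64 against 1.29 at 48 h. FTH1 itself was lower at 48 h (0.925), though less so than TFRC. CP fell further than TFRC at both times (0.500 and 0.595), and HFE did at 24 h (0.657).

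**Figure D3:**
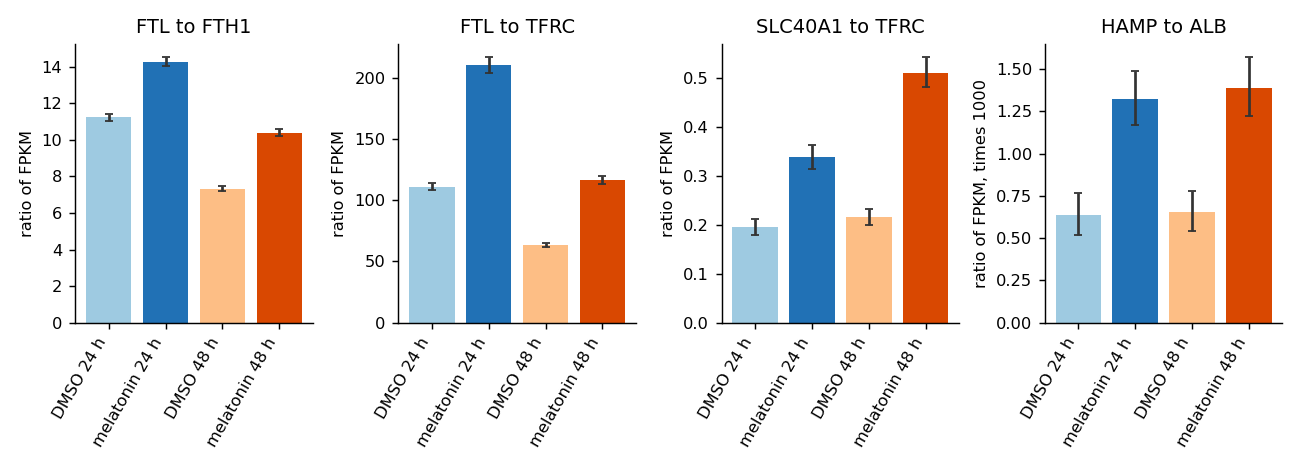
Ratios of FPKM between genes of the same library (bars from 0, with 95% counting intervals) for FTL to FTH1, FTL to TFRC, SLC40A1 to TFRC and HAMP to ALB (times 1000), in the 4 libraries. In each panel the melatonin bar is above the DMSO bar of the same time, for example 0.511 against 0.215 for SLC40A1 to TFRC at 48 h. The panels are a choice among the ratios computed. TF to TFRC, with no common direction, and TF to ALB, lower with melatonin at both times, are not shown.

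With time in culture, ferritin light chain was lower at 48 h in both treatments. These comparisons share libraries with the melatonin comparisons and are given side by side as values. FTL at 48 h was 0.560 (0.554 to 0.567) of its 24 h level with DMSO and 0.545 (0.539 to 0.550) with melatonin, and it was the single member past 1.5-fold in each (1 of 10, beside 23.8% and 12.8% of all genes). No member passed 2-fold, beside 7.74% of all genes with DMSO and 4.15% with melatonin. TF at 48 h was above its 24 h level with DMSO, at a ratio of 1.26, and below it with melatonin, at 0.710. For SLC40A1 the ratio with DMSO was 1.08 (0.972 to 1.20), and for melatonin it was 1.49 (1.37 to 1.63). TFRC was 0.979 (0.945 to 1.01) and 0.985 (0.946 to 1.03), within counting error of no difference as deposited, but with DMSO its log2 value was 0.47 as TPM and 0.13 with plain sums of reads, outside that error. The mitochondrial share of reads also differed with time, as given above. Under TPM the median of all genes in the DMSO time comparison moved from 0.00 to 0.46 and in the melatonin one from -0.04 to 0.23, and the higher share of the calls from 45.2% to 80.7% and from 58.9% to 72.9%. At 24 h the median for melatonin over DMSO moved from 0.02 to 0.17. Summing the reads plainly gave a median of 0.14 and a higher share of 61.8% in the DMSO time comparison. On the TPM scale HAMP, TFR2, TFRC, SLC11A2, FTH1 and CP changed sign with DMSO and HAMP, TFR2, TFRC and SLC11A2 with melatonin, whereas FTL stayed lower at 48 h under every scaling tried, at -0.33 with DMSO and -0.60 with melatonin as TPM. As TPM, TF (0.84) and SLC40A1 (0.59) with DMSO and SLC40A1 (0.82) with melatonin were larger in size than FTL.

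Of 6 genes of the iron regulatory protein system, 4 were higher and 2 lower at each time (medians 0.10 and 0.05), with IREB2 at 8.28, 9.27, 7.77 and 7.63, ACO1 at 7.99, 8.56, 5.05 and 5.79, SKP1 at 4.48, 5.02, 4.69 and 4.79, and FBXL5, the iron-sensing ligase subunit that degrades IREB2 protein, at 5.67, 5.29, 3.75 and 5.61. Of 5 other transcripts with described IREs, 4 were measured above the minimum, with 3 higher and 1 lower at each time (medians 0.11 and 0.09). Among them EPAS1, a hypoxia-inducible factor subunit, was 24.9, 22.5, 25.3 and 24.2 and CDC14A was 1.05, 1.21, 1.20 and 1.42. Of the kin of transferrin and its receptor, MELTF was 8.60, 7.47, 2.999 and 4.75 and NAALAD2 was 1.56, 1.16, 1.41 and 1.22, both lower at 24 h and 1 of the 2 higher at 48 h (medians -0.21 and 0.20).

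Heme synthesis and breakdown, the main sink for mitochondrial iron, had 9 of 15 genes higher with melatonin at 24 h and 12 of 15 at 48 h, beside 53.5% and 47.5% of all genes. The medians were 0.20 and 0.21, beside 0.02 and -0.02 for all genes, and none passed 2-fold in log2 of FPKM plus 1. FECH, ferrochelatase, which inserts iron into protoporphyrin, was 5.98, 9.47, 3.53 and 6.997, higher with melatonin by 0.58 and 0.82 in log2 of FPKM plus 1. PPOX, which makes the protoporphyrin that FECH uses, was 2.87, 3.45, 1.40 and 3.15, a plain ratio of 2.26 at 48 h. HMOX1, the heme oxygenase that frees iron, was 10.5, 7.75, 7.38 and 6.98. Iron-sulfur cluster assembly was near even, with 12 of 19 higher at 24 h and 9 of 19 at 48 h (medians 0.05 and -0.01). Within it, FDXR, a mitochondrial ferredoxin reductase, was 34.4, 23.4, 16.4 and 16.1, lower with melatonin at 24 h and nearly level at 48 h. SLC25A28, a mitochondrial iron importer, was 6.55, 7.16, 9.93 and 7.01, with opposite directions at the 2 times. BOLA3 was 7.51, 7.65, 4.29 and 6.11, nearly level at 24 h and higher with melatonin at 48 h.

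The heme and hemoglobin scavengers of plasma included the falls past 2-fold. HPX, hemopexin, which binds free heme, was 6.09, 2.01, 2.93 and 0.322 from 406, 148, 233 and 26 reads, and fell past 2-fold at both times (-1.24 and -1.57 in log2 of FPKM plus 1). HP, haptoglobin, which binds free hemoglobin, was 34.7, 21.2, 12.2 and 5.15, a fall of -1.11 at 48 h and a value of -0.69 at 24 h. HP shares sequence with HPR, listed at 17.6, 9.31, 5.32 and 4.50, so reads may be divided between the pair. Of 6 scavengers tested, 4 were lower at 24 h and all 6 at 48 h, while 53.5% and 47.5% of all genes were higher. The medians were -0.39 and -0.17, beside 0.02 and -0.02 for all genes. The 6 include ALB and AMBP, which were close to level at 48 h, at ratios of 0.985 and 0.945. At 24 h these were the 2 that were higher, at 1.08 and 1.12. HPX and HP are, like CP and TF, proteins that hepatocytes secrete into plasma, but such proteins had no common direction at 48 h. Among the 6 hepatocyte markers, AFP and APOA1 were also lower, at ratios of 0.411 and 0.709. ALB, SERPINA1 and APOB were at 0.985, 1.11 and 1.03, and TTR was higher, at 5.05.

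**Figure D4:**
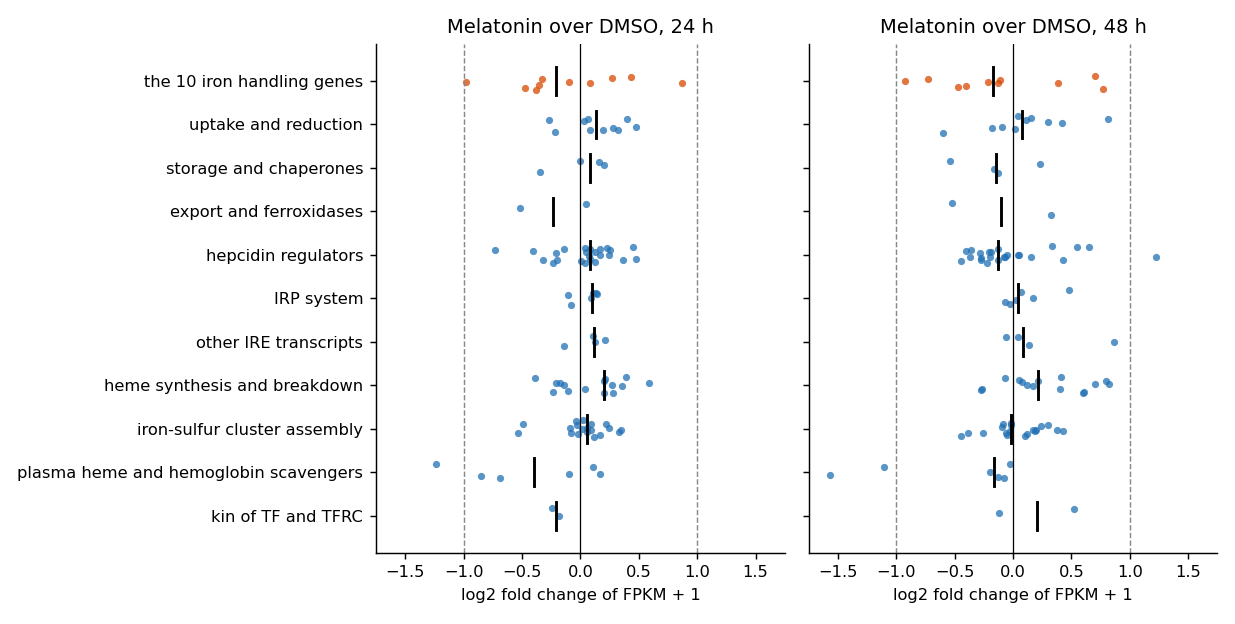
Log2 fold change of FPKM plus 1, melatonin over DMSO, at 24 h (left) and 48 h (right) for the 10 iron handling genes and for 10 lists of related genes, 1 point per gene whose FPKM reached 1, the vertical bar at the median of the list and dashed lines at 2-fold. The 10 genes lie inside the dashed lines, and the points beyond them are IL6R on the right at 48 h and HPX and HP on the left.

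For the 3 members with the widest range over the libraries, the genes with the most similar centered profile were sought among 11349 genes by Euclidean distance over the 4 libraries on the log2 scale, a description that rests on 4 points. Nearest to FTL were GCAT (distance 0.098) and FDFT1 (0.101), with FDFT1 at 34.8, 42.8, 18.4 and 24.0. CP lay nearest to SERPINA7 (0.049), at 66.1, 34.1, 61.6 and 37.0, and POU5F1 (0.072). Among the genes nearest to HAMP was ARL2BP (0.115).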

How the data were processed

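Expression was measured by mRNA-seq of HepG2 cells, 1 library for each of 4 conditions. The authors deposited FPKM per gene, with gene coordinates and a gene length, and no read counts. The submitters' processing notes name Bowtie2 2.0.6, TopHat2 2.0.9, Cufflinks 2.1.1 and Cuffdiff 2.1.1, whereas the study's methods name MapSplice, Cufflinks and hg38; which aligner made the files is not given in the sources used here. The method behind the listed length is not stated.

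Multiplied by gene length, 100% of the FPKM values came out as whole reads (tolerance 0.01). The library size that the FPKM imply was 0.849 to 0.973 of the reads on genes. Log2 fold changes were of FPKM plus a pseudocount of 1, called at 1 or more either way, among genes whose FPKM reached 1 in one of the compared libraries. With 1 library per condition no test was made and no p-value is given. Intervals (95%) were exact Poisson limits and exact Clopper-Pearson limits of the share of the reads, and the scripts were tested on simulated data. Precision was set by reads per gene, from 109 for HAMP to 138955 for TF.

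All 10 members were named. From each other list, genes past 2-fold with at least 50 reads in either library were named, or otherwise the 2 with the largest log2 fold change. HMOX1, HPR, HJV, BMP2, BMP4, BMP6, ID2, ID3 and HEPH, and values of listed genes at the other time, were added after their values were seen. A few genes that the rule names are not reported here. Members and lists were chosen with earlier results of these data known. Alternatives covered the pseudocount, filter, scaling, centering, threshold and ferritin pseudogenes. IREs were searched in GENCODE 44 on hg38. Python 3.11.15, numpy 2.4.6, pandas 2.3.3, scipy 1.17.1 and matplotlib 3.10.9 were used.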

Additional observations from a re-analysis of the deposited data

Results flagged for a closer look

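FTH1, ferritin heavy chain, moved in opposite directions at the 2 times: the ratio of melatonin to DMSO was 1.06 (1.04 to 1.08) at 24 h and 0.925 (0.904 to 0.947) at 48 h, with 1 library per condition. The 48 h effect less the 24 h effect was -0.20 (-0.24 to -0.15) in log2 of the FPKM ratio. That interval covers counting error only, and no test was made. The FTH1 values also moved with scaling, though each kept its sign. In log2 of FPKM plus 1, the 24 h value was 0.08 as deposited, 0.26 as TPM and 0.04 for protein-coding genes centered on their median. The 48 h value was -0.11 as deposited, -0.17 as TPM and -0.04 with mitochondrial genes left out of the library size. The ratio of melatonin to DMSO for FTL, the light chain, was 1.35 and 1.31 in the same libraries.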

How the results depend on the processing

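No paired analysis was made: each condition is 1 library, the labels carry no replicate numbers, and pairing by time would treat 24 h and 48 h as replicates. No library could be left out, because each condition is 1 library. The count of members past 2-fold, 0 in each comparison, became 1 at 24 h with a pseudocount of 0.1 (HAMP), as TPM (HAMP) and for protein-coding genes centered on their median (CP), and 1 at 48 h with a pseudocount of 0.1 (HAMP). At 1.5-fold it was 2 at 24 h, 4 at 48 h and 1 in each time comparison. The median of the members at 24 h moved from -0.21 to -0.052 as TPM. For 48 h over 24 h it moved with DMSO from -0.12 to 0.32 as TPM and to 0.0074 with plain sums of reads, and with melatonin from -0.21 to 0.026 as TPM. Of 248 recomputed log2 fold changes of members, 18 had the other sign, 1 of them in a melatonin comparison (TF at 24 h as TPM). Of the same 248, 77 lay outside the counting interval of the reported value, so those intervals understate the dependence on processing. Over all genes, the count past 2-fold ran from 79 to 1569 at 24 h (591 as reported), from 252 to 2576 at 48 h (789), from 461 to 3651 with time in DMSO (1072) and from 95 to 2085 with time in melatonin (560), the 1.5-fold threshold included. The cause of these shifts was not tested. Depth limits HAMP and HFE most, with intervals wider than the difference between times.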
